A study of Homo sapiens with 18 samples.

Results

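The ATAC-seq peaks of human chromosome 13 were described in A2780 and Acis ovarian carcinoma cells, beside the RNA of the genes on that chromosome. Every peak that the deposited lists place on chromosome 13 was taken, which gave 2017 of the 118944 peaks in 4 lists. These were 710 of 34979 peaks in A2780 control cells, 624 of 32159 in A2780 cells given cisplatin, 319 of 24485 in Acis control cells and 364 of 27321 in Acis cells given cisplatin. A2780 is a cisplatin-sensitive line derived from an ovarian carcinoma, and Acis (sold as A2780cis) is its cisplatin-resistant derivative, which received 1 µM cisplatin every 3 passages to keep the resistance. Cells of both lines were left untreated or exposed to 200 µM cisplatin for 3 h. ATAC-seq, in which a transposase cuts accessible chromatin, was done on cells first treated with DNase, and each peak list was called on pooled data, from 3 control or 2 cisplatin replicates, so that a list is 1 sample with no replicate error. RNA-seq counts came from 3 libraries of each of the 4 groups. The chromosome was picked with its peak counts known, so these counts are described without a test. Each line stands for 1 sensitive and 1 resistant culture, so a difference between the lines is a difference between these cultures.

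Chromosome 13 is acrocentric: its short arm carries ribosomal RNA genes and satellite repeats, and its protein-coding genes lie on the long arm, where gene-rich bands alternate with long gene-poor stretches. Among its genes are RB1, the retinoblastoma tumour suppressor that restrains entry into S phase, BRCA2, which acts in the repair of broken DNA by homologous recombination, ATP7B, a copper-exporting ATPase, and MIR17HG, the host of an oncogenic microRNA cluster. An open promoter or enhancer gives a peak in ATAC-seq, and the number of reads over it depends on the accessibility of the site and on the number of DNA copies of the region. Fewer DNA copies and less accessible chromatin cannot be told apart in the peak lists used here.

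Stretches of reference sequence around the summits of 5 regions show the kinds of site that differed between the lists. The first 2 were held in both A2780 lists and overlapped no peak of either Acis list. The next 2 were held in both Acis lists and in neither A2780 list. The last appeared after cisplatin in A2780 cells. All were read on the plus strand of GRCh38 (hg38), the build of the peak lists, and span 300 bases centred on the summit. Capitals mark GGAATG or its reverse complement, the TEAD letters, in the first and TGANTCA, the AP-1 letters, in both Acis-only sites printed. These were chosen from 5 named Acis-only sites, of which the other 3 held none of the letters searched. The site near GPC5 and the site gained in A2780 held none of the letters searched.
NBEA intron, chr13:35285685-35285984: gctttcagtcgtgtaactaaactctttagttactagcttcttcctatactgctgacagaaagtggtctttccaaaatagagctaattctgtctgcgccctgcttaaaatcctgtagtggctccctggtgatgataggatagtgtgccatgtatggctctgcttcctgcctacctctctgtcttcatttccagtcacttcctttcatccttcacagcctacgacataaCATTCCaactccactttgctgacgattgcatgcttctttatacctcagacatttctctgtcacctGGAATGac
upstream of GPC5, chr13:91217482-91217781: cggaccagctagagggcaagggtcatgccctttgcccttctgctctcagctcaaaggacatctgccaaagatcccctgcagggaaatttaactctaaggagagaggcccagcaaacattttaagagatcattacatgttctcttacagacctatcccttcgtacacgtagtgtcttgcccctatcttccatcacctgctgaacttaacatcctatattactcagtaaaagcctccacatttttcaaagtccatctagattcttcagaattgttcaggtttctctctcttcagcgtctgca
near SPRY2, chr13:80630776-80631075: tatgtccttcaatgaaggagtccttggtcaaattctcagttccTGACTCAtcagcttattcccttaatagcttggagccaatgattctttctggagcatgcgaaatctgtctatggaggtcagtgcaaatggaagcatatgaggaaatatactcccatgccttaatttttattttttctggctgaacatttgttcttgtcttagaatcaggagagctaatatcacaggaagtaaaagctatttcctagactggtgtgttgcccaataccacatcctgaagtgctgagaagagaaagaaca
near TDRD3, chr13:60345536-60345835: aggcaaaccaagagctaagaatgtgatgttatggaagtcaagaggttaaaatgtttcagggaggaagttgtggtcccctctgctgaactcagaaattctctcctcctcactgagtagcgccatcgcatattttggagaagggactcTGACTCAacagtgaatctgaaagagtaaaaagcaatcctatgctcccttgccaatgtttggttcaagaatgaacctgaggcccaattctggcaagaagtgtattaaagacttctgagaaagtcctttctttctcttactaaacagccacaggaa
lncRNA intron on 13q, gained in A2780, chr13:31424196-31424495: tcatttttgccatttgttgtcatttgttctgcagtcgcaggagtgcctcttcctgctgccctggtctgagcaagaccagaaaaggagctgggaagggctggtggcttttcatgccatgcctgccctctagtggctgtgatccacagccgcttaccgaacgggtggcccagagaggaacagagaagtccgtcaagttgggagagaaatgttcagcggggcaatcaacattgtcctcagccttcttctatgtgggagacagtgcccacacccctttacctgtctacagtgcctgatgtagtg

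The first of these lay in an intron of NBEA, which encodes neurobeachin, a protein of membrane traffic, and was called with a fold enrichment over background of 13.4 and a −log10 q of 584 in A2780 control cells. In A2780 cells given cisplatin the same site had 10.8-fold enrichment. The second was intergenic, 181 kb from the start of GPC5, and had 14.2-fold enrichment in A2780 control and 9.66-fold in A2780 cisplatin. Neither overlapped a peak of an Acis list. The A2780-only site with the highest −log10 q (618, 16.2-fold) lay in ADPRHL1, at chr13:113448928-113449655, with its summit in an intron and its edge over an exon of a shorter transcript. Of the Acis-only sites, the one at chr13:80630216-80631382 had a −log10 q of 236 in Acis control cells and 10.6-fold enrichment, with 14.1-fold after cisplatin. It lay 290 kb from SPRY2, an inhibitor of receptor tyrosine kinase signalling that was the nearest coding gene. The other, 50.8 kb from the start of TDRD3, had 8.70-fold enrichment in Acis control and 9.43-fold in Acis cisplatin.

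Acis cells had fewer peaks on chromosome 13 than A2780 cells, and the deficit was larger than on any other chromosome. The Acis control list held 0.449 times as many chromosome 13 peaks as the A2780 control list, against 0.700 times over all chromosomes and a range of 0.650 on chromosome 18 to 0.780 on chromosome 8 for the other 22. Under cisplatin the ratio was 0.583, against 0.850 over all chromosomes and 0.733 to 1.00 on the others. Chromosome 13 thus took 2.03% of the peaks of A2780 control (95% Wilson interval 1.89% to 2.18%) and 1.30% of those of Acis control (1.17% to 1.45%). The intervals cover counting error only. The lists differed in length over the whole genome, so the ratio was also taken over the 20000 most significant peaks of every list, where it was 0.638 in control cells (0.919 to 1.12 on the other chromosomes) and 0.719 under cisplatin (0.896 to 1.20). Treatment changed the number of peaks less, and by ratios within the range of the other chromosomes. The A2780 cisplatin list held 0.879 times the chromosome 13 peaks of its control list (0.919 over all chromosomes, 0.849 to 1.01 on the others). The Acis cisplatin list held 1.14 times those of its own (1.12 over all chromosomes, 1.08 to 1.21 on the others).

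**Figure D1:**
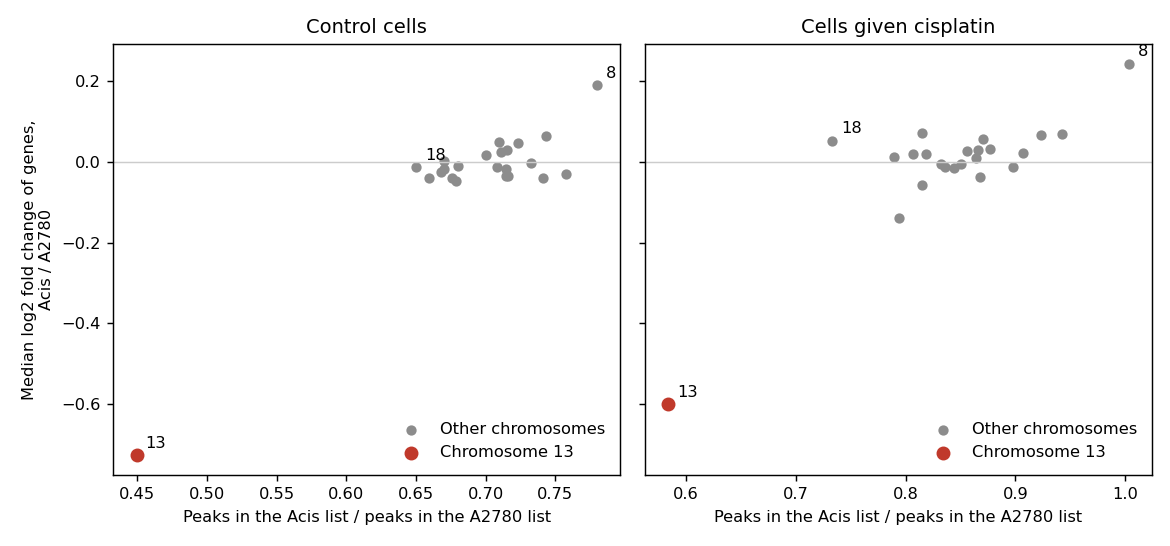
Each point is 1 chromosome, where the horizontal axis gives the number of peaks in the Acis list divided by that in the A2780 list, and the vertical axis the median log2 fold change of the tested genes between the lines, for control cells on the left and cells given cisplatin on the right. Chromosome 13 (red) stands apart from the other 22 on both axes, at 0.449 and −0.73 in control cells.

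Of the 710 chromosome 13 peaks of A2780 control cells, 451 overlapped no Acis control peak by 1 base or more. This was 63.5% (95% Wilson interval 59.9% to 67.0%), against 42.1% of the peaks of all chromosomes and 32.2% to 51.9% on the other chromosomes. In the opposite direction 60 of 319 Acis control peaks had no overlap in A2780 control, 18.8% against 16.7% over all chromosomes. Among the 20000 most significant peaks of every list, 194 of 403 A2780 control peaks had no overlap in Acis control (48.1%, against 22.9% over all chromosomes). Under cisplatin 350 of 624 A2780 peaks (56.1%, background 33.2%) had no overlap in Acis, and 85 of 364 Acis peaks (23.4%, background 20.3%) had none in A2780. The excess over the background therefore lay in the peaks of A2780 that Acis lacked. Loss touched promoters as well as distal sites: 79 of 216 promoter peaks of A2780 control, within 1000 bases of an annotated gene start, had no overlap in Acis control (36.6%, against 19.4% over all chromosomes), and so had 372 of the other 494 (75.3%, against 53.6%). Of the Acis control peaks without an overlap in A2780 control, 6 of 140 were at promoters (4.29%, against 4.41% over all chromosomes) and 54 of 179 elsewhere (30.2%, against 25.1%).

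**Figure D2:**
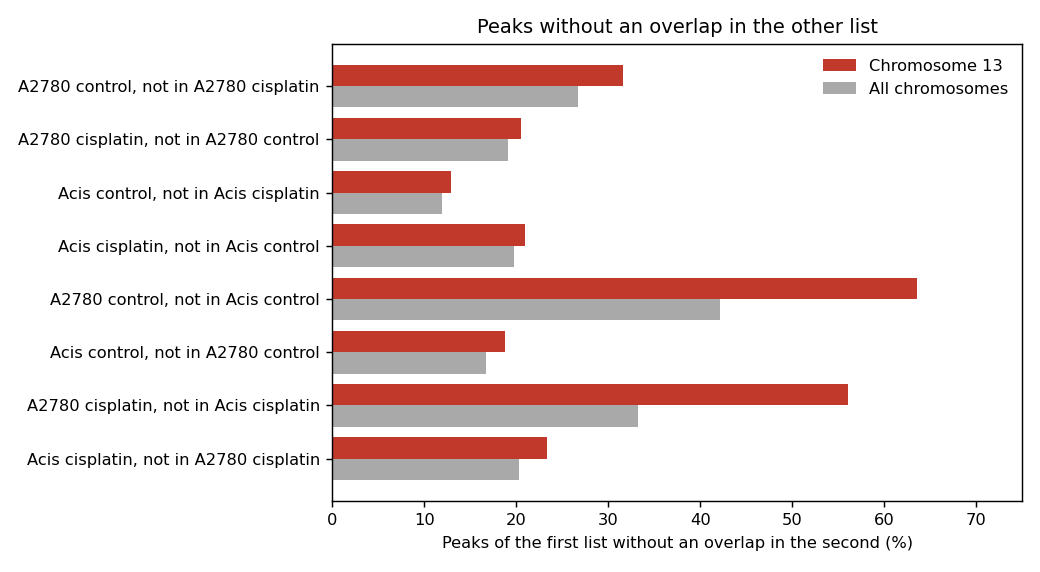
Bars give the percentage of peaks of the first-named list without an overlap of at least 1 base in the second, for chromosome 13 (red) and all chromosomes (grey). The gap between the bars is widest for A2780 control peaks not in Acis control (63.5% against 42.1%) and A2780 cisplatin peaks not in Acis cisplatin (56.1% against 33.2%).

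When the 4 lists were merged, chromosome 13 held 911 of 45685 separate loci. All 4 lists shared 216 of them (23.7%, against 38.5% over all chromosomes), 197 were in both A2780 lists and no Acis list (21.6%, against 10.1%), and 40 were in both Acis lists and no A2780 list (4.39%, against 4.67%). The 259 A2780 control peaks that did overlap an Acis control peak were not called with lower enrichment in Acis: the median log2 ratio of fold enrichment, Acis over A2780, was 0.06, and it was above 0 at 153 of them. That median was still the lowest of the 23 chromosomes, against 0.12 over all shared loci and 0.10 to 0.15 on the others. The ratio exists only for sites called in both lists, and fold enrichment is taken over local background.

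Shared and lost sites differed in sequence. In 300-base windows around the summits, the 451 A2780 control peaks without an overlap in Acis control had a median GC content of 47.3% and the 259 with one had 61.3%. Over all chromosomes the same medians were 49.3% and 60.3%. The 451 peaks were also weaker in A2780 control than the 259, with a median −log10 q of 40.7 against 170. Their median fold enrichment was 7.79 against 15.4. Sequence was not compared between peaks of equal strength. Part of the gap on chromosome 13 came from position, since 79 of the 451 and 137 of the 259 were at promoters. Away from promoters the medians were 46.0% for lost and 54.0% for shared peaks, and at promoters 63.7% and 65.7%. Letters were searched on both strands as AP-1 (TGANTCA), CTCF core (AGGGGGC), GC box (GGGCGG), ETS (CCGGAAG) and TEAD (GGAATG). Away from promoters, 43 of 372 lost sites (11.6%) held the AP-1 letters, against 7 of 122 shared sites (5.74%), and the GC box was in 7.80% of the lost and 26.2% of the shared. Over all chromosomes the AP-1 shares were 9.59% and 7.15%, so a difference of the same sign was present genome-wide. The 54 non-promoter Acis control peaks without an overlap in A2780 control had 42.3% GC, held the AP-1 letters in 11.1% and the TEAD letters in 29.6%, and 0 of 54 held the CTCF letters. The like peaks of all chromosomes (3653) had 44.7% GC and shares of 11.3% for AP-1, 22.9% for TEAD and 7.34% for CTCF, so the AP-1 share was that of the genome. Over all A2780 control peaks of the genome, 6.99% of the windows held the AP-1 letters, 15.7% the CTCF letters, 34.5% the GC box, 7.71% the ETS letters and 16.0% the TEAD letters. These are matches of letters and do not show that a factor was bound.

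The deficit was not even along the chromosome. In 10 Mb windows with at least 20 A2780 control peaks, the ratio of Acis to A2780 control peaks was lowest between 30 and 40 Mb, where 135 peaks in A2780 faced 26 in Acis (0.193), and highest between 50 and 60 Mb, with 38 and 34 (0.895). The ratio was under 0.5 in 6 of the 11 windows of chromosome 13 and in 32 of 293 windows elsewhere. Windows of 5 Mb, chosen after the 10 Mb windows were seen, placed the losses more closely. Between 35 and 40 Mb, 94 peaks in A2780 control and 57 in A2780 cisplatin faced 8 and 9 in the Acis lists, and 86 of the 94 (91.5%, against 42.1% over all chromosomes) had no overlap in Acis control. Between 90 and 95 Mb the counts were 52 and 31 in A2780 and 4 and 4 in Acis, and between 65 and 70 Mb 19 and 10 against 1 and 2. Both A2780 lists exceeded both Acis lists in each of these stretches. In 1 window Acis had more in both conditions: between 55 and 60 Mb each A2780 list held 5 peaks and each Acis list 16, and no peak of the 2 control lists overlapped there. Between 80 and 85 Mb, the gene-poor stretch around SPRY2, the control lists held 60 and 51 peaks and the cisplatin lists 35 and 43, and 20 of the 51 Acis control peaks were absent from A2780 control, where 16.7% were over all chromosomes.

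**Figure D3:**
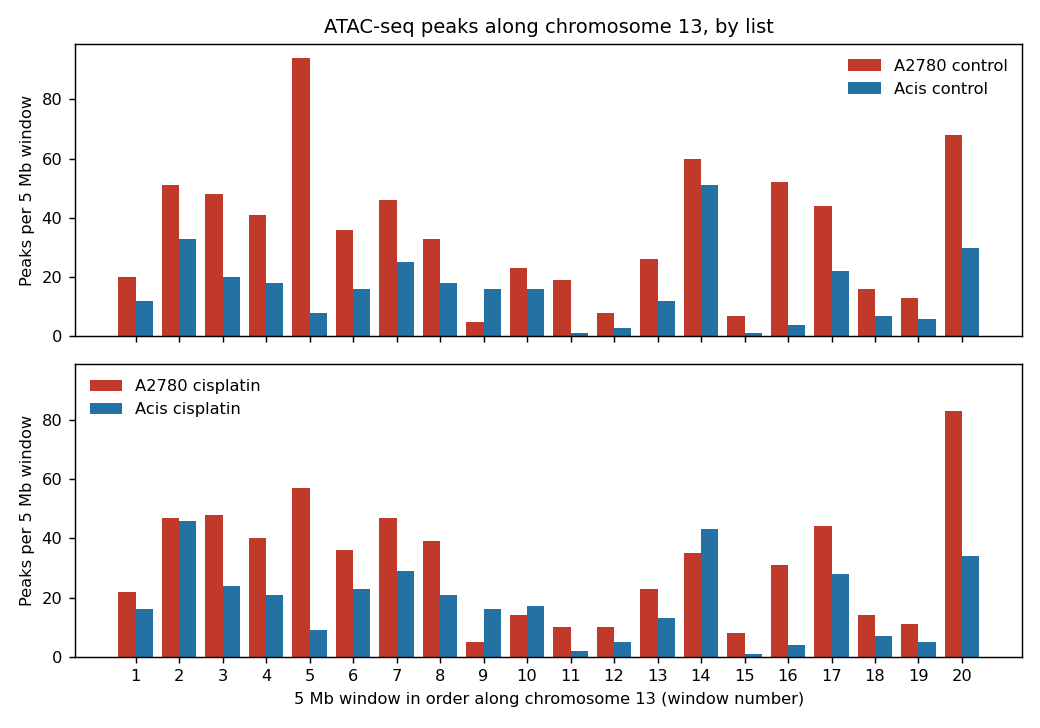
Bars give the number of peaks in each 5 Mb window, with windows in order along the chromosome from the first that holds a peak (window 1 is 15 to 20 Mb), for A2780 (red) and Acis (blue). The tallest A2780 control bar, 94 peaks in window 5, stands beside 8 in Acis control, and window 9 (55 to 60 Mb) is the one in which Acis has more peaks in both conditions.

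The most significant peaks were shared by all 4 lists. The promoter shared by CAB39L and SETDB2, at chr13:49443859-49444740, had 24.0-fold enrichment in both control lists. A site ahead of RAP2A, a small GTPase gene, had 19.0-fold enrichment in A2780 control and 20.8-fold in Acis control, and the promoter of WDFY2 17.8-fold and 20.3-fold. A peak over ING1, which encodes a chromatin reader of the inhibitor of growth family, had 11.9-fold and 13.1-fold. These peaks were chosen for a high −log10 q in the control lists. Their fold enrichment, which is taken over local background, was similar or higher in Acis control. Their −log10 q was lower in Acis control. In the order named it was 1269 in A2780 control and 760 in Acis control, 1121 and 586, 903 and 565, and 917 and 559. Over all peaks of the lists the median −log10 q was 68.0 in A2780 control and 96.8 in Acis control. The highest value of all belonged to a 214-base peak at chr13:109424128-109424341, with a −log10 q of 9092 and 40.1-fold enrichment in A2780 control and 40.3-fold, 43.7-fold and 43.2-fold in A2780 cisplatin, Acis control and Acis cisplatin. Over its 214 bases the reference was 100% identical to the mitochondrial genome, so that its reads could also come from mitochondrial DNA. It was the only chromosome 13 peak of each list to match the mitochondrial genome over at least 100 bases at 90% identity or more.

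After cisplatin for 3 h, the shares gained in A2780 and the shares gained and lost in Acis were close to those of the whole genome. The share lost in A2780 was above that of the whole genome but within the range of the other chromosomes (15.5% to 32.0%). In A2780, 224 of 710 control peaks had no overlap after cisplatin (31.5%, background 26.7%) and 128 of 624 cisplatin peaks had none in control (20.5%, background 19.1%). In Acis 41 of 319 were lost (12.9%, background 11.9%) and 76 of 364 gained (20.9%, background 19.8%). Among the losses in A2780, the peak at chr13:80786593-80787388 had a −log10 q of 316 in A2780 control and stayed in both Acis lists, and another, 3.81 kb from SPRY2, had 266. The leading gain in A2780, in an intron of a long noncoding RNA gene at chr13:31423950-31424576, had 21.5-fold enrichment and was in no other list. Gains in Acis included the promoters of POLR1D, a subunit of RNA polymerases I and III (19.5-fold), and PDS5B, a cohesin regulator (18.3-fold), which were peaks of both A2780 lists as well.

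RNA of the same genes was lower in Acis. The count table held 435 chromosome 13 genes, of which 270 passed the filter on low counts (194 coding, 45 long noncoding and 31 others). Library totals ran from 4130644 to 5072216 counts. Reads from chromosome 13 genes made up 1.81% to 1.82% of all counts in the 3 A2780 control libraries, 1.62% to 1.68% in A2780 cisplatin, 1.17% to 1.23% in Acis control and 1.16% to 1.22% in Acis cisplatin. Every Acis library lay below every A2780 library. The ratio of the means, Acis over A2780 in control cells, was 0.663, while on the other chromosomes it ran from 0.937 to 1.10. In bulk RNA, fewer cells that express a gene and less RNA per cell cannot be told apart. Of the markers of the tissue, VIM, a mesenchymal filament gene, had 1745 to 2105 normalised counts in all 12 libraries, the epithelial keratin gene KRT18 was at 18.3 to 32.0 in A2780 control and 132 to 150 in Acis control, KRT8 at 12.5 to 20.5 and 2.12 to 6.83, EPCAM had 28 counts in all, the ovarian and Mullerian markers PAX8, WT1 and MUC16 were not listed in the table, and the mesenchymal markers COL1A1 and CDH2 were lower in Acis control (8.49 to 22.4 and 60.4 to 76.4) than in A2780 control (787 to 902 and 619 to 638). The part of the marker difference in the results below was not tested.

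By edgeR's quasi-likelihood test, with Benjamini-Hochberg adjustment over all 15760 tested genes, 84 of the 270 chromosome 13 genes were lower in Acis control than in A2780 control at an adjusted p under 0.05 and a log2 fold change of at least 1 in size. That is 31.1%, against 12.2% of all tested genes and at most 19.0% on another chromosome. Only 10 were higher, 3.70% against 6.99%. Among the 84 were 53 coding and 28 long noncoding RNA genes. The median log2 fold change was −0.73, against −0.01 over all genes and −0.05 (chromosome 1) to 0.19 (chromosome 8) on the others. At an adjusted p under 0.05 alone, 207 genes were lower (76.7%, background 30.6%) and 20 higher (7.41%, background 28.2%). A log2 fold change between −1 and −0.5 was found for 98 genes (36.3%, against 8.99% of all genes), between −2 and −1 for 49 (18.1%, against 5.33%) and below −2 for 36 (13.3%, against 6.99%). At an adjusted p under 0.05 alone under cisplatin, 203 genes were lower (background 31.2%) and 23 higher (background 31.8%). With the fold threshold 70 genes were lower in Acis under cisplatin (25.9%, background 11.9%) and 13 higher (4.81%, background 7.28%), with a median of −0.60. Of the genes called lower, 59 were called in both conditions, which is 59 of 84 and 59 of 70, and all 10 genes called higher in control cells were called higher under cisplatin.

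**Figure D4:**
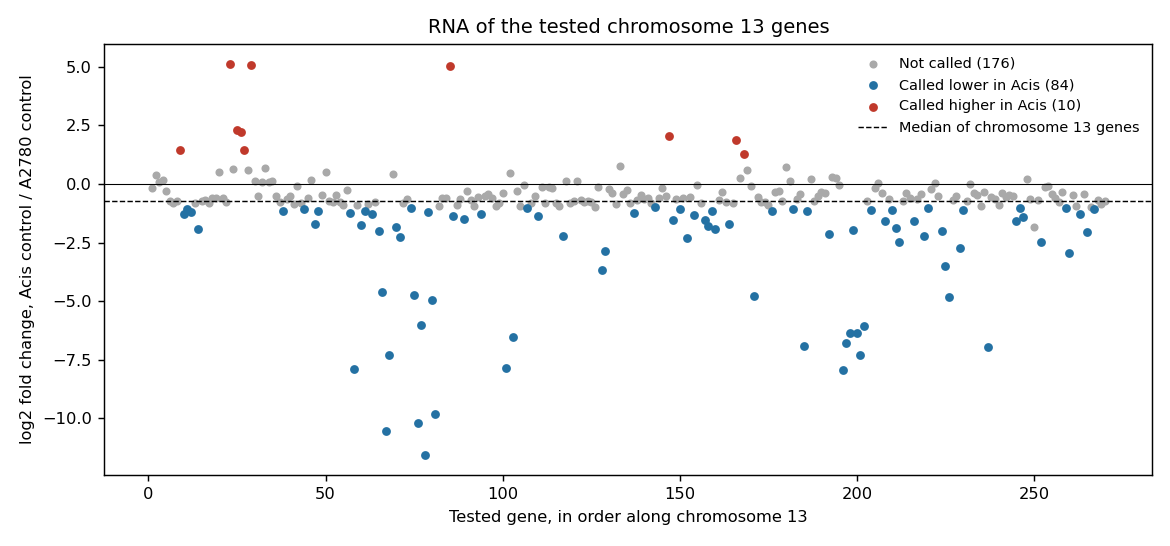
Each point is 1 of the 270 tested chromosome 13 genes, in order along the chromosome, with its log2 fold change between Acis control and A2780 control (edgeR). Most points lie below 0 around the dashed median of −0.73, with 84 called lower (blue) and 10 called higher (red); the most negative values belong to genes with 0 or few counts in Acis and depend on the small count that edgeR adds.

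The stretches in which Acis had few peaks held some of the genes with the largest falls, although others, such as FRY and EFNB2, lay in windows with a peak ratio near that of the chromosome (0.439 and 0.462). Between 35 and 40 Mb, 12 of 18 tested genes were called lower, with a median log2 fold change of −2.03. Over the chromosome 31.1% of tested genes were called lower, and over all tested genes 12.2%. Among the 12 were genes with 0 or few counts in Acis, which passed the filter through A2780. LINC02334, a long noncoding RNA gene, had 397, 356 and 383 normalised counts in the A2780 control libraries and 307, 270 and 283 in A2780 cisplatin, and 0 in all 6 Acis libraries. Taking 3 counts over the group as the floor, the Acis control level was at least 348-fold lower and the Acis cisplatin level at least 294-fold lower. MAB21L1, a developmental gene inside NBEA, had 705, 731 and 732 normalised counts in A2780 control and 1.06, 0 and 0 in Acis control. With 1 read in the Acis group, the ratio of 1991 had a counting interval of 357 to 78694. The lines did not overlap for either gene. FRY, at 32 Mb, had 123, 107 and 121 in A2780 control and 1 read in the Acis control group, a ratio of 322 (interval 57.4 to 12746).

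FREM2, which encodes an extracellular matrix protein of basement membranes, fell from a mean of 770 ± 35.1 (SD, n = 3) to 0.735 ± 0.637, and TRPC4, a cation channel gene, from 579 ± 11.5 to 0.380 ± 0.658. For TRPC4 the Acis value rested on 1 read, with a ratio of 1595 (interval 286 to 63019), and for FREM2 on 2 reads, with a ratio of 1064 (294 to 8791). POSTN, encoding periostin, a secreted matrix protein, had 1581, 1629 and 1581 normalised counts in A2780 control and 59.4, 56.4 and 63.8 in Acis control. It still had reads in every Acis library, and its log2 fold change was −4.74 (SE 0.06, edgeR adjusted p = 6.21e-29). NBEA itself, which starts just before 35 Mb and whose intron held the A2780-only peak shown above, went from 591 ± 13.6 to 24.0 ± 3.26, a log2 fold change of −4.62 (SE 0.10). Between 35 and 40 Mb other genes changed less. EXOSC8, an RNA exosome subunit gene, and ALG5, of protein glycosylation, had log2 fold changes of −0.83 and −0.63, near the median of the chromosome, and SPART had 132 normalised counts in A2780 control and 178 in Acis control (0.43).

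A second cluster lay between 90 and 95 Mb, where 7 of 9 tested genes were called lower with a median of −6.06. Over the chromosome 31.1% of tested genes were called lower, and over all tested genes 12.2%. Genes such as GPC5 and GPC6 had few counts in Acis and passed the filter through A2780. The median of this stretch therefore depends on the small count that edgeR adds. GPC6, one of the glypicans, proteoglycans anchored in the cell membrane, had 354, 352 and 364 normalised counts in A2780 control and 4.24, 2.13 and 0 in Acis control, and its neighbour GPC5 had a mean of 127 ± 9.72 and 1.47 ± 1.27. MIR17HG had 265, 298 and 273 in A2780 control and 66.8, 66.0 and 80.9 in Acis control. The lines did not overlap for any of the 3 genes, and the log2 fold change of MIR17HG was −1.97 (SE 0.10, edgeR adjusted p = 3.25e-16). Its promoter held a peak in both A2780 lists and in neither Acis list. Between 65 and 70 Mb, where the control lists held 19 and 1 peaks, PCDH9, which encodes an adhesion protein of the protocadherin family, went from 943 ± 28.4 to 34.4 ± 2.20, with a log2 fold change of −4.77 (SE 0.08).

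The 10 genes called higher in Acis ran against the chromosome. FOXO1, a forkhead transcription factor that responds to insulin signalling, had 0.932, 3.84 and 2.13 normalised counts in A2780 control and 77.5, 75.6 and 86.6 in Acis control (log2 fold change 5.04, SE 0.30, edgeR adjusted p = 2.90e-14). TNFRSF19, a receptor of the tumour necrosis factor family, had 289, 283 and 292 in A2780 control and 1291, 1389 and 1278 in Acis control. For both genes all Acis libraries lay above all A2780 libraries. The TNFRSF19 promoter held a peak in both Acis lists (−log10 q 125 in control and 101 under cisplatin) and in neither A2780 list. SPATA13, a guanine nucleotide exchange factor gene, rose from 3.89 ± 1.48 to 138 ± 5.96, and GJA3, a connexin gene, from 101 ± 10.7 to 273 ± 21.7. PCDH17, a protocadherin gene and the only tested gene between 55 and 60 Mb, the window in which Acis had more peaks, rose from 52.6 ± 2.52 to 192 ± 8.89, a log2 fold change of 1.87 (SE 0.11). TDRD3, near the second Acis-only site shown above, had 399 ± 7.80 in A2780 control and 954 ± 33.1 in Acis control. Exons of SPATA13 and FOXO1 overlap other annotated genes over 41.5% and 22.7% of their length, so their counts are less certain. Both had few reads in A2780 and passed the filter on low counts through Acis, where they are high. FOXO1 had 7 reads in the A2780 control group, a ratio of 34.8 (counting interval 16.6 to 87.5). SPATA13 had 12, a ratio of 35.0 (19.8 to 68.4).

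**Figure D5:**
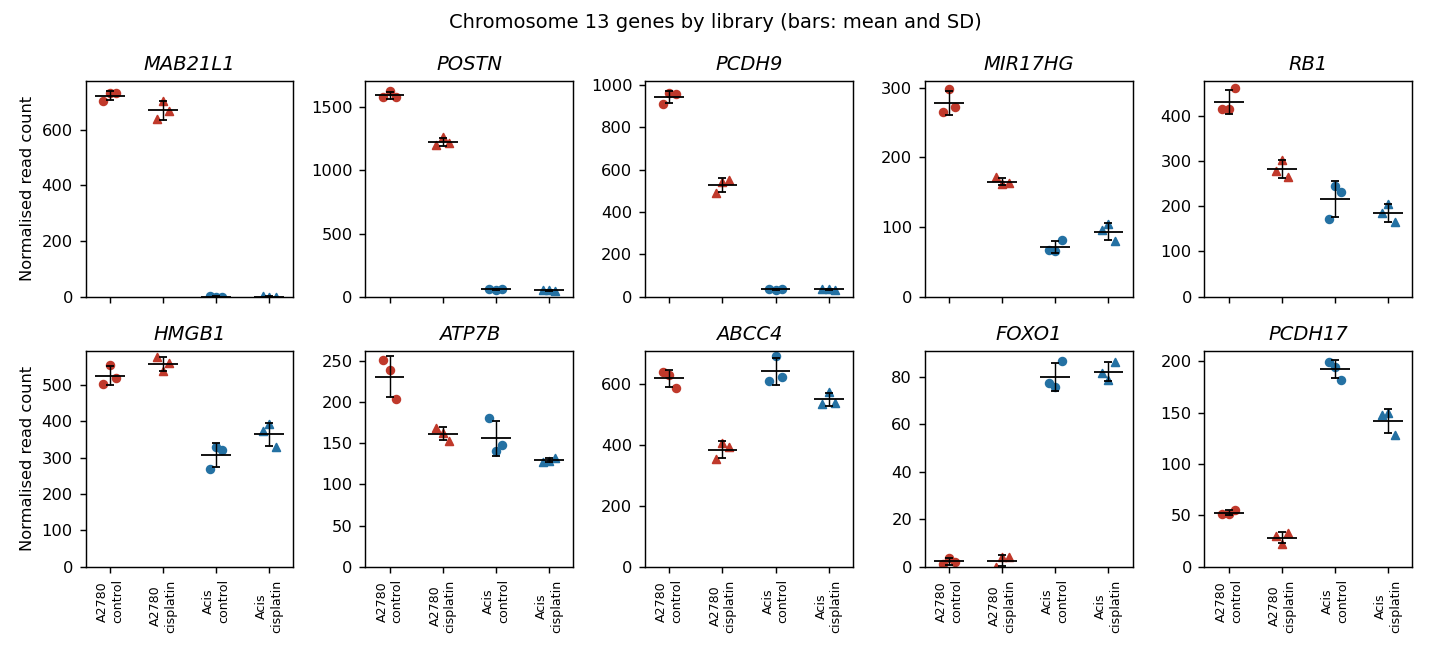
Points give the normalised read count of each library for 10 chromosome 13 genes (A2780 red, Acis blue, circles control, triangles cisplatin), with the group mean and SD as bars (n = 3). MAB21L1, POSTN and PCDH9 are near 0 in Acis, RB1 and HMGB1 are lower without vanishing, ABCC4 is at a like level in both control groups, and FOXO1 and PCDH17 are higher in Acis.

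Genes were also grouped by the state of their promoter in the control lists. Of the tested genes, 148 had a promoter peak in both control lists and a median log2 fold change of −0.74, with 39 called lower. In the A2780 list alone 48 had one, with a median of −0.85 and 20 called lower. A further 71 had one in neither list and a median of −0.37, with 25 called lower. These counts stand beside 31.1% called lower over the chromosome and 12.2% over all tested genes. The 3 tested genes with a promoter peak in the Acis list alone, TNFRSF19, SPATA13 and GJA3, were all called higher. Under cisplatin, 4 tested genes had a promoter peak in the Acis list alone, of which 2 were called higher and 2 were below 0. In control cells RNA was lower also where the promoter peak was kept in both lines. Over the 11 windows of 10 Mb, the Spearman correlation of the log2 peak ratio with the median log2 fold change was 0.36 and Pearson's r 0.54. The windows share the same lists and libraries, and no p is given.

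Groups of genes by function are given against the shares of the whole chromosome, where 76.7% of tested genes were lower by adjusted p and 31.1% called lower, and of all tested genes (30.6% and 12.2%). All 10 DNA repair and genome maintenance genes of the list were tested, and 9 passed an adjusted p under 0.05 as lower in Acis control while 0 reached a log2 fold change of −1, with a median of −0.63 against −0.73 for the chromosome and −0.01 for all genes. BRCA2 had 877, 843 and 826 normalised counts in A2780 control and 397, 491 and 478 in Acis control, a log2 fold change of −0.90 (SE 0.06). RFC3, a subunit of the clamp loader of replication, and LIG4, the ligase of end joining, were at −0.76 and −0.65, PDS5B at −0.87 and CUL4A, a ubiquitin ligase scaffold, at −0.61. ERCC5, the 3′ endonuclease of nucleotide excision repair, was the member that did not pass (18.4 ± 6.11 and 14.6 ± 4.42, edgeR adjusted p = 0.342). Its counts were low, and 33.0% of its exon bases are shared with the BIVM-ERCC5 readthrough. HMGB1, a chromatin protein that binds cisplatin-bent DNA, had 504, 555 and 519 in A2780 control and 270, 330 and 321 in Acis control (−0.78, SE 0.07).

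Of 6 tested transporter genes 4 (near the share of the chromosome) were lower by adjusted p and 0 reached a log2 fold change of −1. ATP7B had 251, 239 and 204 normalised counts in A2780 control and 180, 141 and 148 in Acis control, a log2 fold change of −0.57 (SE 0.09, edgeR adjusted p = 3.31e-06), and SLC7A1, a transporter of cationic amino acids, was at −0.72. ABCC4, an efflux pump of the ABC family, had 637, 630 and 585 in A2780 control and 608, 690 and 622 in Acis control. Its groups overlapped, with a log2 fold change of 0.05 (SE 0.05, edgeR adjusted p = 0.448). Under cisplatin ABCC4 was higher in Acis (548 ± 22.2 against 384 ± 28.6, log2 fold change 0.52, edgeR adjusted p = 2.62e-08), and the interaction was 0.47 (edgeR adjusted p = 0.000184).

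The lists that follow are read against the same shares. Of 14 tested cell cycle genes, 12 were lower by adjusted p, 1 was higher, and 1 (PIBF1, a centrosome gene, −1.17) reached the fold threshold. RB1 had 415, 415 and 462 in A2780 control and 172, 245 and 231 in Acis control, and its log2 fold change of −0.99 (SE 0.09) stayed just short of the threshold. All 12 RNA processing genes and all 14 tested genes of protein folding and turnover were lower by adjusted p, with medians of −0.84 and −0.65, and 3 and 2 of them reached the fold threshold. The matrix, adhesion and cell surface list had 7 tested members, with a median of −4.77. In it 5 were called lower (POSTN, PCDH9, FREM2, GPC5 and GPC6) and 1 higher (PCDH17). FREM2, GPC5 and GPC6 had few reads in Acis control and passed the filter through A2780. All 5 lie in the stretches described above where Acis had few peaks, and the list was chosen with earlier results known. Of 9 tested transcription factor genes 4 were called lower and 1, FOXO1, higher. SMAD9, which transmits signals of bone morphogenetic proteins, went from 154 ± 22.3 to 32.2 ± 11.4 (−2.24). KLF5 had 34 counts over all libraries and was not tested. Of 10 tested genes of growth factor, receptor and kinase signalling all were lower by adjusted p and 3 called, among them EFNB2, encoding an ephrin ligand, with 60.1 ± 8.96 and 0.380 ± 0.658. EFNB2 had 1 read in the Acis control group and passed the filter through A2780. The 4 tested microRNA host and long noncoding genes were all lower by adjusted p, MIR17HG and DLEU1 past the fold threshold.

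Cisplatin moved few chromosome 13 genes past the fold threshold. In A2780, 12 genes rose (4.44%, background 4.14%) and 7 fell (2.59%, background 1.48%) by edgeR, and the median was −0.10, against −0.01 over all genes. With total counts as library sizes the median of all genes moved by 0.11, that of chromosome 13 to 0.01, and 4 genes fell. At an adjusted p under 0.05 alone 32 rose (11.9%, background 21.2%) and 96 fell (35.6%, background 28.2%). Of the 12, 8 were long noncoding RNA genes and their means in A2780 control were at most 45.5 normalised counts. CCDC168 had 13.1, 13.5 and 13.9 in A2780 control and 65.6, 78.4 and 73.6 in A2780 cisplatin. It also rose in Acis, from 13.4 ± 4.43 to 39.9 ± 7.82. RASL11A, a small GTPase gene, rose from 45.5 ± 1.93 to 99.5 ± 6.19. Among the falls, UGGT2, a folding sensor of the endoplasmic reticulum, went from 459 ± 27.5 to 210 ± 19.8 and DGKH, a diacylglycerol kinase gene, from 893 ± 29.0 to 445 ± 16.0. In Acis 3 genes rose (1.11%, background 1.64%), CCDC168, UBAC2-AS1 and PAN3-AS1, and 0 fell by edgeR (background 0.374%). At an unadjusted p under 0.05 with the same fold threshold 1 gene fell in Acis, at an adjusted p under 0.05 alone 29 fell (10.7%, background 12.4%) and 16 rose (5.93%, background 9.35%), and DESeq2 called 0 falls and 2 rises.

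The response to cisplatin itself differed between the lines, by the interaction term of the edgeR fit, for 52 chromosome 13 genes. In 48 (17.8%, background 13.4%) the change was more positive in Acis and in 4 (1.48%, background 5.48%) more negative. Of the 48, 44 had a log2 fold change below 0 in A2780, 39 of them past the adjusted p, and the medians with cisplatin were −0.46 in A2780 and 0.02 in Acis. SUGT1, a co-chaperone gene, had 1165, 1160 and 1165 normalised counts in A2780 control, 755, 750 and 774 in A2780 cisplatin, 632, 675 and 711 in Acis control and 704, 721 and 666 in Acis cisplatin. It fell in A2780 and its Acis groups overlapped, and the interaction was 0.67 (SE 0.06, edgeR adjusted p = 3.96e-08). BRCA2 fell by 0.94 on the log2 scale in A2780, from 848 ± 25.8 to 442 ± 11.9, and had 455 ± 51.0 and 404 ± 45.7 in Acis, with an interaction of 0.77. Each interaction uses the same control libraries as the comparison of the lines, in which SUGT1 and BRCA2 were already lower in Acis control. Not all of the 48 were lower there: TNFRSF19 and GJA3 were called higher in Acis control.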

How the data were processed

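RNA-seq counts of 12 libraries and 4 ATAC-seq peak lists of A2780 and Acis cells were used, and 2 XR-seq samples were not analysed here. The count values were deposited as raw counts per gene, which the authors made from ribosomal RNA-depleted stranded reads with STAR 2.7.3 and HTSeq 0.11.1. The peak lists were made by the authors with cutadapt 1.15, Bowtie2 2.4.1, Picard and MACS2 on hg38, with reads of the Y chromosome and the mitochondrial genome removed. In the deposited lists the fold enrichment over local background, the −log10 p and −log10 q, and the integer score were written by MACS2 on reads pooled over replicates. Up to 10 alignments were allowed per read, so peaks in repeated sequence are uncertain. Peaks were called on the pooled reads and kept by their overlap with the peaks of the replicates.

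Genes were tested with edgeR 4.0.16 in R 4.3.3 (TMM scaling, filterByExpr, 1 quasi-likelihood fit over the 4 groups, Benjamini-Hochberg adjustment over 15760 genes). Called means an adjusted p under 0.05 and a log2 fold change of at least 1 in size, or for the interaction the adjusted p alone. Normalised counts are counts divided by the TMM-scaled library size relative to the mean. On simulated data edgeR recovered 99.5% of 200 genes changed 4-fold between Acis control and A2780 control among 15056 genes. The simulation gave every gene the same dispersion (0.000304) and changed only genes above a minimum expected count. It does not speak for genes of low count, changes near the threshold or a larger spread. Labels do not say that replicates were separate cultures, so p-values measure the spread between these libraries. Replicates differed by 0.730 to 1.53 times the counting noise and by less than it for every pair of A2780 control, so the closest pair of each other group was merged as an alternative. Gene positions came from GENCODE 44 on GRCh38, overlaps from bedtools 2.31.1 (1 base or more) and the mitochondrial match from BLASTN 2.17.0.

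The chromosome, gene lists and tests were chosen with earlier results of these data known. Named regions were the 5 with the highest −log10 q of each control list, up to 5 held by both lists of one line only, and up to 3 gained and 3 lost with cisplatin. Named genes were up to 5 rises and 5 falls a comparison whose groups were separate and whose higher group averaged 50 normalised counts or more, up to 5 each way for the interaction, up to 4 of each list by adjusted p, and ATP7B, ABCC4, ERCC5, HMGB1, RB1 and KLF5. NBEA, GPC5, TDRD3, LIG4, EXOSC8, ALG5, SPART, UBAC2-AS1 and PAN3-AS1 were named after their values were seen. One gene and one region that these rules name are not reported here. Alternatives were DESeq2 1.42.0, other library sizes, other filters on low counts, a replicate block, each library left out, and other peak thresholds and overlaps. The 5 Mb windows and the chromosome ratios over 20000 peaks were added after seeing the data.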

Additional observations from a re-analysis of the deposited data

Results flagged for a closer look

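The response to cisplatin differed between the lines by the interaction term of edgeR, which tests the difference itself. The change was more positive in Acis for 48 chromosome 13 genes (17.8%, against 13.4% of all tested genes). It was more negative in Acis for 4 (1.48%, against 5.48%). The interaction log2 fold change was 0.67 for SUGT1, 0.68 for DGKH, 0.77 for BRCA2 and 1.149 for MIR17HG. With cisplatin MIR17HG went from 279 ± 17.2 to 165 ± 5.38 normalised counts in A2780 (SD, n = 3) and from 71.2 ± 8.36 to 93.6 ± 12.1 in Acis. In the other direction the interaction was −0.27 for TSC22D1, a leucine zipper transcription regulator, −0.19 for TPT1, the translationally controlled tumour protein gene, and −0.35 for ING1.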

How the results depend on the processing

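The lower RNA of chromosome 13 genes in Acis kept its direction under every alternative run: the median log2 fold change ran from −0.78 to −0.71 in control cells and from −0.65 to −0.58 under cisplatin when each library was left out. The genes called lower then numbered 85 to 93 and 71 to 81. A filter of at least 50 counts on the mean, which tests fewer genes, left 41 lower and 5 higher in control cells and 26 lower and 6 higher under cisplatin, and no filter gave 107 lower under cisplatin. For cisplatin in A2780, no filter gave 23 genes higher and 15 lower, the stricter filter 1 and 2, and total counts as library sizes 4 lower with a median log2 fold change of 0.014. In Acis the stricter filter gave 0 genes higher by edgeR, and leaving out each library gave 0 to 3 lower, with 3 without Acis control replicate 1 and 1 without Acis cisplatin replicate 2. The interaction called 29 and 2 genes with DESeq2 and 8 in the negative direction with total counts, and leaving out each library gave 35 to 52 positive and 3 to 7 negative, with 7 without Acis cisplatin replicate 3. The cause was not tested.

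Replicate numbers did not pair the libraries: of 18 correlations of deviations, from −0.205 to 0.282, 2 exceeded 0.1. With the replicate block 10 genes were higher and 84 lower between the control groups, 13 and 70 between the cisplatin groups, 12 and 8 with cisplatin in A2780, 3 and 0 in Acis by edgeR, and the interaction called 50 and 4.

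Of the peak overlaps, the 20000 most significant peaks of each list left 194 of 403 A2780 control peaks without an overlap in Acis control (48.1%, all chromosomes 22.9%), 157 of 363 A2780 cisplatin peaks without one in Acis cisplatin (43.3%, 21.7%) and 54 of 261 in the opposite direction (20.7%, 20.9%), 103 of 403 lost (25.6%, 17.0%) and 61 of 363 gained (16.8%, 16.5%) in A2780, and 40 of 261 gained in Acis (15.3%, 11.7%). A −log10 q of at least 20 in both lists gave 196 of 407 (48.2%, 25.8%) and 53 of 266 (19.9%, 18.7%) between the cisplatin lists, 34 of 407 gained in A2780 (8.35%, 7.41%), and 70 of 301 lost (23.3%, 20.2%) and 31 of 266 gained (11.7%, 9.84%) in Acis. A reciprocal overlap of 50% gave 131 of 364 Acis cisplatin peaks without a match in A2780 cisplatin (36.0%, 28.4%). Of 71 values of named genes, 65 stayed on their side of the threshold under every alternative run. Depth limits the low genes: 165 of the 435 listed genes were not tested.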
